A study of Homo sapiens with 28 samples.

Results

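The E2F transcription factors and their pocket proteins were followed as 10 of the 61815 genes in the count table. They were taken by gene symbol: E2F1, E2F2, E2F3, E2F4, E2F5, E2F7 and E2F8, and the pocket protein genes RB1, RBL1 (p107) and RBL2 (p130). RNA-seq was done in LNCaP, an androgen-responsive human prostate cancer cell line labelled wild type, in 28 libraries of 8 groups. All cells were androgen deprived in charcoal-stripped serum for 72 h before treatment, and that deprivation is shared by the controls. In a 24 h experiment with 3 libraries per group, cells received vehicle (0.1% DMSO), 1 µM Senexin B, 0.1 nM of the synthetic androgen R1881, or Senexin B and R1881 combined. Doses and times are those of the sample labels, and the text of the study gives a higher Senexin B dose. In a 72 h experiment with 4 libraries per group, the groups were vehicle, 500 nM SNX631, 1 nM R1881, or SNX631 and R1881 combined. Senexin B and SNX631 inhibit CDK8 and CDK19, the kinases of the Mediator complex.

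E2F proteins bind the promoters of genes for DNA replication and cell division, and most of them do so as dimers with a DP protein. E2F1, E2F2 and E2F3 are known as activators, E2F4 and E2F5 mostly as repressors that work with RBL1 and RBL2, and E2F7 and E2F8 as atypical repressors that bind DNA without DP. RB1, RBL1 and RBL2 hold E2Fs in check until cyclin-dependent kinases phosphorylate them, and RBL2 with E2F4 and the MuvB proteins forms the DREAM complex of quiescent cells. In prostate cancer, loss of RB1 releases this brake.

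Read totals were 9846595 to 15248512 counts in 27 of the libraries, and 33809419 in vehicle 24 h replicate 3. All 7 luminal prostate markers examined (KLK3, KLK2, TMPRSS2, FOLH1, HOXB13, KRT8 and KRT18) were detected in every library, and their summed level ranged from 2415 to 3078 CPM at 24 h and from 2370.0 to 3415 CPM at 72 h. Of 7 markers of other cell types, KRT5 was at 0 in all 28 libraries and 5 others reached at most 3 counts. The seventh, COL1A1, ranged from 7.44 to 30.9 CPM, and nearly all of the summed level of the 7 came from it. That sum was 22.3 to 25.02 CPM in vehicle, 10.6 to 12.4 in Senexin B, 14.2 to 15.3 in R1881 and 7.44 to 8.85 in the combination at 24 h, and 27.6 to 31.0, 18.1 to 21.3, 16.996 to 24.1 and 10.3 to 12.9 CPM in the matching 72 h groups. Its part in the results was not tested. All 10 genes passed the filter on low counts in each fit.

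Promoter sequence is shown for the genes whose level moved most, with E2F3 as a contrast, because E2F genes are themselves known E2F targets. RefSeq (GRCh38.p14) windows matched 8 of the 10 genes, E2F5 and E2F8 being the others, and the window listed for RB1 lies inside the gene. Each line gives the 100 bases before the RefSeq start, 5′ to 3′ on the gene's strand, at chr20:33686386-33686485 (minus strand) for E2F1, chr1:23531234-23531333 (minus) for E2F2, chr20:37095998-37096097 (minus) for RBL1, chr12:77065570-77065669 (minus) for E2F7 and chr6:20401779-20401878 (plus) for E2F3. Capitals mark a match to an E2F motif, spelled TTTCCCGC, TTTCGCGC, TTTGCCGC or TTTGGCGC and searched on both strands, so that a match on the other strand appears as its reverse complement.
E2F1: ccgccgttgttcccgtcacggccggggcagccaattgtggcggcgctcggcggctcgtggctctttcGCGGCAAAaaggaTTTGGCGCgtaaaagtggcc
E2F2: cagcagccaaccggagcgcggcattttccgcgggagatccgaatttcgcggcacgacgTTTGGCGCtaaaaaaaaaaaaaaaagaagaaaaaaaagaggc
RBL1: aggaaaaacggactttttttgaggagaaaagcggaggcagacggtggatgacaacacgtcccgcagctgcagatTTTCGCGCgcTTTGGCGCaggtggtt
E2F7: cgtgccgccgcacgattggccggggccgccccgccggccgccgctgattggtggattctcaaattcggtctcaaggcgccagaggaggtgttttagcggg
E2F3: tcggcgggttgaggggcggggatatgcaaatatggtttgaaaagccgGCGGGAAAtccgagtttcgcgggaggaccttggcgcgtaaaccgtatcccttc

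E2F1 and RBL1 each held 2 matches within 40 bases of the start, and E2F2 and E2F3 held 1 each. None of these letters occurred in the windows of E2F4, E2F7, RBL2 or RB1. In all, 4 of the 8 genes had a match, and these 8 genes have 10 windows, with the match of E2F3 in 1 of its 2. Of 35116 RefSeq promoter windows of 300 bases, 3.31% had a match, which is a share of windows and not of genes. A match is a string of letters and was not tested for binding.

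Levels per kb of exon put RBL2 at the top in androgen-deprived cells and E2F2, E2F7 and E2F8 at the bottom. In vehicle at 24 h, RBL2 stood at 21.0 ± 0.217 CPM per kb (SD, n = 3), followed by RB1 at 12.0 ± 0.373, E2F4 at 10.75 ± 1.06 and E2F3 at 8.83 ± 0.362. E2F5 (2.94 ± 0.183), E2F1 (2.56 ± 0.270) and RBL1 (2.00 ± 0.106) came next on the same scale. E2F2, E2F8 and E2F7 were lowest at 0.182 ± 0.0584, 0.176 ± 0.0390 and 0.164 ± 0.0443 CPM per kb, with overlapping libraries. The libraries of RB1 and E2F4 also overlapped, as did those of E2F5 and E2F1. With 1 nM R1881 at 72 h, E2F1 (19.2 ± 1.27, n = 4) reached the level of RBL2 (19.15 ± 0.735), whose libraries it overlapped, and with SNX631 added it stood above it at 28.2 ± 1.18 against 19.0 ± 0.878 CPM per kb.

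In GENCODE 29 coordinates (GRCh38), E2F1 spans chr20:33675683-33686404 and RBL1 chr20:36996349-37095995, both on the minus strand. E2F2 lies at chr1:23506430-23531220, E2F7 at chr12:77021247-77065580 and E2F8 at chr11:19224063-19241620, also on the minus strand. E2F3 (chr6:20401906-20493715), E2F4 (chr16:67192169-67198918), RB1 (chr13:48303726-48599436) and RBL2 (chr16:53433977-53491649) are on the plus strand, as is E2F5 on chromosome 8. Exons of genes on the opposite strand share 969 bases with E2F5 (C8orf59), 721 and 610 with RBL2 (AC007342.6 and AKTIP) and 211 with RBL1 (AL136172.1). The kit was directional but the use of strand in counting is not given in the sources used here, so reads of these pairs may not be fully separated.

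**Figure D1:**
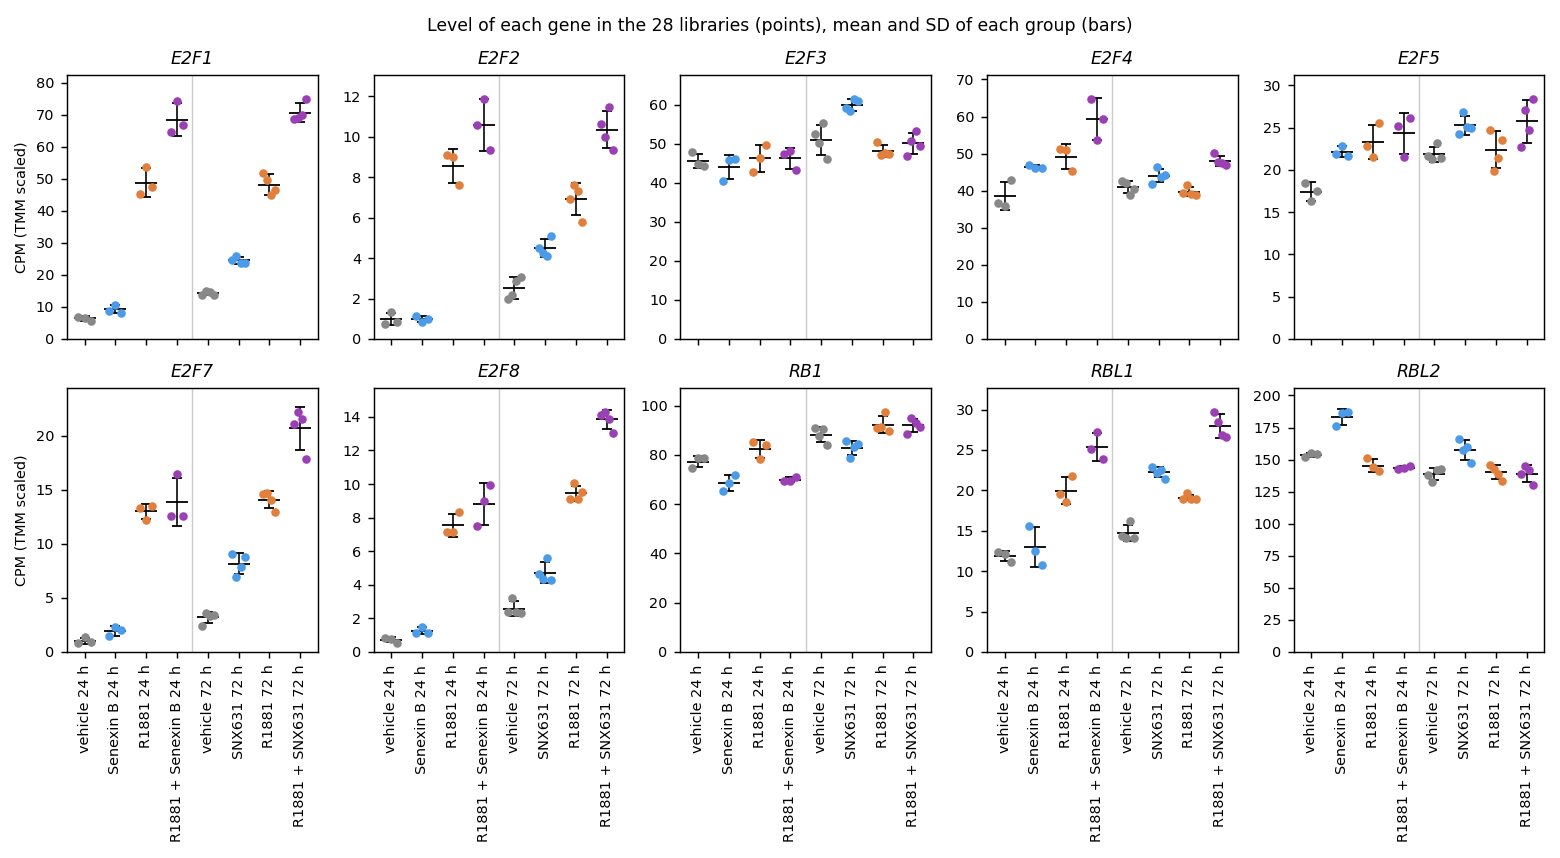
Level of each of the 10 genes (CPM, TMM scaled, y axis from 0) in the 8 treatment groups (x axis). Points are libraries and bars the mean and SD of each group (n = 3 at 24 h, n = 4 at 72 h). E2F1, E2F2, E2F7 and E2F8 rose several-fold with R1881 in both experiments. Over all libraries E2F3 ran from 40.4 to 61.6 CPM, RB1 from 65.2 to 97.6 CPM and RBL2 from 130 to 187 CPM.

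The first comparison asked what androgen did to this gene set in deprived cells. At 24 h, 0.1 nM R1881 raised E2F1, E2F2, E2F7 and E2F8 between 7.91-fold and 12.9-fold and raised RBL1 by 1.71-fold. These 5 of 10 genes were called higher (edgeR, Benjamini-Hochberg adjusted p under 0.01 and a fold over 1.5), against 9.81% of the 15948 genes tested. The median log2 fold change was 0.60 over the 10 genes and -0.02 over all genes tested. In bulk RNA, fewer cells of a type and less RNA per cell cannot be told apart, so a level here can reflect either the share of cells that express a gene or the amount in each.

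E2F1, the activator first found as a partner of RB1, was at 7.01, 6.56 and 5.68 CPM in vehicle and 45.2, 53.8 and 47.4 CPM in R1881 at 24 h. The groups were far apart, and the log2 fold change was 2.98 ± 0.10 (SE, adjusted p = 1.67e-23). E2F2, another activator, rose from 0.758, 1.35 and 0.861 CPM to 9.09, 9.02 and 7.61 CPM (log2 fold change 3.14 ± 0.21, adjusted p = 5.21e-16). The atypical repressor E2F7 gave the highest fold of the set. It went from 0.853, 1.35 and 0.890 CPM to 13.3, 12.2 and 13.5 CPM, a log2 fold change of 3.69 ± 0.21 (adjusted p = 1.54e-18). E2F8, its close relative, went from 0.853, 0.784 and 0.545 CPM to 7.14, 7.15 and 8.31 CPM (3.50 ± 0.25, adjusted p = 4.77e-16). Vehicle libraries held only 8 to 31 counts of E2F2, E2F7 and E2F8 each, and their fold changes had larger SEs than that of E2F1.

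The pocket proteins responded unequally. RBL1, itself a known E2F target, was at 12.3, 12.2 and 11.2 CPM in vehicle and 19.6, 18.6 and 21.8 CPM in R1881 (log2 fold change 0.77 ± 0.10, adjusted p = 3.64e-08), with every R1881 library above every vehicle library. RB1 was at 74.5 to 78.8 CPM in vehicle and 78.3 to 85.0 CPM in R1881, overlapping ranges (0.08 ± 0.04, 95% interval -0.0022 to 0.17, adjusted p = 0.101). RBL2 was at 152 to 155 CPM in vehicle and 141 to 151 CPM in R1881 (-0.09 ± 0.04, adjusted p = 0.0426), a difference that did not pass at 0.01. Among the remaining E2Fs, E2F4 (35.9 to 42.9 against 45.2 to 51.2 CPM, log2 fold change 0.31 ± 0.07, adjusted p = 0.000189) and E2F5 (16.3 to 18.5 against 21.5 to 25.5 CPM, log2 fold change 0.42 ± 0.08, adjusted p = 2.96e-05) rose by less than 1.5-fold. Thus 7 of the 10 passed the adjusted p alone, all higher, against 26.3% of all genes. The activator E2F3 had overlapping libraries, at 44.4 to 47.8 CPM in vehicle and 42.8 to 49.6 CPM in R1881 (0.03 ± 0.06, 95% interval -0.09 to 0.14, adjusted p = 0.691).

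At 72 h, 1 nM R1881 raised the same E2F1, E2F2, E2F7 and E2F8 between 2.72-fold and 4.35-fold. They were the 4 of 10 genes called higher, against 9.7% of 16074 genes tested. The median log2 fold change was 0.22 over the 10 genes and -0.01 over all genes. Of all called genes 48.9% were higher, and 38.0% were with library totals in place of TMM factors, which lowered the log2 fold changes of the 10 genes by a median of 0.102.

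E2F1 was at 13.7, 14.9, 14.5 and 13.7 CPM in vehicle and 51.9, 49.5, 44.8 and 46.4 CPM in R1881 (log2 fold change 1.75 ± 0.06, adjusted p = 6.74e-25). E2F7 rose from 2.40, 3.60, 3.29 and 3.45 CPM to 14.6, 14.6, 14.1 and 12.97 CPM (2.12 ± 0.13, adjusted p = 3.8e-18). For both genes each R1881 library lay well above each vehicle library, and the same was true of E2F2 and E2F8. E2F2 went from 1.97, 2.18, 2.87 and 3.07 CPM to 6.94, 7.61, 7.33 and 5.79 CPM (1.44 ± 0.15, adjusted p = 3.87e-11). E2F8 went from 2.40, 3.23, 2.36 and 2.30 CPM to 9.12, 10.1, 9.10 and 9.51 CPM (1.86 ± 0.13, adjusted p = 4.59e-16).

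RBL1 was the only other gene of the set to pass the test at 72 h. It rose from 14.4, 14.1, 16.2 and 14.1 CPM to 19.0, 19.6, 18.9 and 18.9 CPM, short of the fold limit and making 5 of 10 that passed higher, against 27.6% of all genes (0.37 ± 0.07, adjusted p = 1.13e-05). The other 5 genes had overlapping libraries and log2 fold changes from -0.09 (E2F3) to 0.06 (RB1), with 95% intervals that all lay between -0.19 and 0.16. In this group E2F5, RB1 and RBL2 took the opposite sign with library totals in place of TMM factors.

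The R1881 effect was smaller at 72 h than at 24 h in the 4 inducible E2Fs, by a direct test of the difference over all 28 libraries. The difference in log2 fold change was -1.23 ± 0.12 for E2F1 (adjusted p = 7.06e-11), -1.69 ± 0.26 for E2F2 (adjusted p = 1.73e-06), -1.57 ± 0.26 for E2F7 (adjusted p = 4.48e-06) and -1.63 ± 0.27 for E2F8 (adjusted p = 4.11e-06). These 4 of 10 were called lower, against 1.31% of 16672 genes. E2F4 also passed at -0.36 ± 0.08 (adjusted p = 0.00182), while E2F5 (-0.39 ± 0.11, adjusted p = 0.0101) and RBL1 (-0.40 ± 0.12, adjusted p = 0.0166) did not. For E2F3, RB1 and RBL2 the differences were -0.12 ± 0.08, -0.02 ± 0.06 and 0.09 ± 0.05, none of which passed (adjusted p = 0.376, 0.869 and 0.264). For E2F1 the R1881 levels were 48.8 ± 4.46 CPM (n = 3) at 24 h and 48.2 ± 3.18 CPM (n = 4) at 72 h, and the vehicle levels were 6.42 ± 0.677 and 14.2 ± 0.619 CPM. Side by side, vehicle levels were 0.991 ± 0.319 and 2.52 ± 0.530 CPM for E2F2, 1.03 ± 0.279 and 3.19 ± 0.539 CPM for E2F7, and 0.727 ± 0.162 and 2.57 ± 0.438 CPM for E2F8. Treatment time, R1881 dose and experiment changed together and cannot be told apart.

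The next comparison asked what CDK8 and CDK19 inhibition did without androgen. At 24 h, with 1 µM Senexin B alone, E2F7 was the 1 of 10 called higher, against 2.02% of genes. E2F7 was at 1.49, 2.35 and 2.00 CPM against 0.853, 1.35 and 0.890 CPM in vehicle (log2 fold change 0.95 ± 0.27, adjusted p = 0.00507), from 9 to 31 counts per library. All Senexin B libraries lay above the vehicle libraries, but the call was lost without vehicle replicate 1 or 3 or Senexin B replicate 2 or 3, with adjusted p up to 0.0827.

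E2F1 was at 8.86, 10.7 and 8.25 CPM with Senexin B against 7.01, 6.56 and 5.68 CPM, a rise just under the fold limit (0.58 ± 0.13, adjusted p = 0.00054), which had an adjusted p of 0.0284 without vehicle replicate 3, the deepest library. E2F1 crossed the fold limit and was called with DESeq2 size factors and without vehicle replicate 1 or 2 or Senexin B replicate 1 or 3. E2F8 (1.12, 1.51 and 1.16 against 0.853, 0.784 and 0.545 CPM, log2 fold change 0.92 ± 0.31, adjusted p = 0.018) did not pass, and E2F2 had overlapping libraries near 1 CPM in both groups (0.04 ± 0.30, adjusted p = 0.932). Of the pocket proteins, 1 rose, 1 fell and RBL1 did not pass (0.16 ± 0.10, adjusted p = 0.258), nor did E2F3 (-0.04 ± 0.06, adjusted p = 0.599). RBL2 rose from 152, 155 and 154 CPM to 176, 187 and 187 CPM (0.25 ± 0.03, adjusted p = 1e-06), and RB1 fell from 74.5, 78.5 and 78.8 CPM to 65.2, 68.8 and 71.8 CPM (-0.18 ± 0.04, adjusted p = 0.00153). E2F5 rose by 0.34 ± 0.08 on the log2 scale (adjusted p = 0.00066) and E2F4 by 0.23 ± 0.07 (adjusted p = 0.00625), the latter not passing in 5 of 6 refits that left out a library, whose adjusted p went up to 0.0376. RB1 did not pass without vehicle replicate 3 or Senexin B replicate 1 (adjusted p up to 0.0229). In all 5 genes rose and 1 fell at the adjusted p alone, against 13.5% and 11.7% of all genes, with a median log2 fold change of 0.24 against 0.00047 over all genes.

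At 72 h, 500 nM SNX631 alone raised all 4 inducible E2Fs and RBL1 in deprived cells. These 5 of 10 were called higher, against 2.82% of genes. The median log2 fold change was 0.42 over the 10 and 0.0019 over all genes.

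E2F7 moved most, from 2.40, 3.60, 3.29 and 3.45 CPM in vehicle to 9.06, 6.92, 7.82 and 8.79 CPM with SNX631 (log2 fold change 1.33 ± 0.14, adjusted p = 2.08e-10). E2F1 reached 24.6, 26.0, 23.8 and 23.9 CPM from a vehicle range of 13.7 to 14.9 CPM (0.79 ± 0.07, adjusted p = 6.64e-12). For both, the lowest SNX631 library exceeded the highest vehicle library by more than the spread within either group. E2F2 reached 4.49, 4.26, 4.11 and 5.11 CPM from 1.97 to 3.07 CPM (0.82 ± 0.16, adjusted p = 5.45e-05), and E2F8 reached 4.66, 4.33, 5.61 and 4.27 CPM from 2.30 to 3.23 CPM (0.86 ± 0.15, adjusted p = 6.04e-06). RBL1 reached 23.0, 22.2, 22.5 and 21.4 CPM from 14.1 to 16.2 CPM (0.60 ± 0.07, adjusted p = 1.42e-09). Its fold of 1.51 sat at the limit, and it slipped below the limit, with the adjusted p still passing, with library totals and without vehicle replicate 1, 2 or 4 or SNX631 replicate 1.

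Of the other members, E2F3 rose to 59.2, 58.3, 61.6 and 60.9 CPM from 52.4, 50.2, 55.2 and 46.1 CPM (0.23 ± 0.05, adjusted p = 9.84e-05), its only passing rise in any comparison. RBL2 rose to 166, 158, 159 and 147 CPM from 138, 133, 142 and 143 CPM (0.18 ± 0.04, adjusted p = 8.79e-05). So 7 of 10 passed, all higher, against 14.4% of all genes. RB1 (-0.09 ± 0.04, adjusted p = 0.0429), E2F4 (0.10 ± 0.05, adjusted p = 0.0855) and E2F5 (0.21 ± 0.07, adjusted p = 0.0143) did not pass. Senexin B and SNX631 were given at different doses and for different times, so their values stand side by side and were not compared.

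The inhibitors were also compared in the presence of R1881. With Senexin B added to R1881 at 24 h, edgeR called 0 of 10 genes, against 3.12% of all genes, and DESeq2 also called 0. Of the 10, 5 had an unadjusted p under 0.05. At least 5257 of all 15948 genes did, the number at an adjusted p under 0.05. E2F1 rose from 45.2, 53.8 and 47.4 CPM to 64.4, 74.2 and 66.8 CPM with no overlap (log2 fold change 0.48 ± 0.06, adjusted p = 5.15e-07). E2F4 rose from a range of 45.2 to 51.2 CPM to one of 53.8 to 64.8 CPM (0.27 ± 0.07, adjusted p = 0.00186). RBL1 rose from 19.6, 18.6 and 21.8 CPM to 25.1, 27.3 and 23.9 CPM (0.34 ± 0.09, adjusted p = 0.00443). RB1, the pocket protein of the activator E2Fs, again went the other way. It fell from 85.0, 78.3 and 84.1 CPM to 69.4, 69.5 and 71.0 CPM (-0.24 ± 0.05, adjusted p = 0.000194). E2F2 (0.05 to 0.54), E2F7 (-0.14 to 0.30) and E2F8 (-0.04 to 0.49, 95% intervals of the log2 fold change) did not pass, nor did E2F3, E2F5 and RBL2, whose log2 fold changes lay between -0.02 and 0.07. The RBL1 rise had an adjusted p of 0.0237 in DESeq2 and did not pass in 4 of 6 refits that left out a library (adjusted p up to 0.0304), and E2F4 did not pass without R1881 replicate 3 or combined replicate 1 (adjusted p up to 0.0354).

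With SNX631 added to R1881 at 72 h, edgeR and DESeq2 each called 0 of 10 genes, against 4.12% of all genes. Of the 10, 7 had an unadjusted p under 0.05. At least 6873 of all 16074 genes did, the number at an adjusted p under 0.05. The 4 inducible E2Fs and RBL1 rose together by amounts just under the fold limit, with log2 fold changes of 0.53 to 0.57. E2F1 was at 68.7, 69.0, 69.8 and 75.0 CPM against 44.8 to 51.9 CPM with R1881 alone (0.54 ± 0.04, adjusted p = 7.34e-13). E2F7 was at 21.1, 22.2, 21.5 and 17.8 CPM against 12.97 to 14.6 CPM (0.54 ± 0.08, adjusted p = 5.34e-07), and E2F8 at 14.1, 14.3, 13.9 and 13.1 CPM against 9.10 to 10.1 CPM (0.54 ± 0.09, adjusted p = 2.2e-06). No library of the combined group overlapped R1881 alone for these genes. RBL1 stood at 29.8, 28.5, 26.9 and 26.6 CPM against 18.9 to 19.6 CPM (0.53 ± 0.06, adjusted p = 1.74e-09) and E2F2 at 10.6, 9.97, 11.5 and 9.34 CPM against 5.79 to 7.61 CPM (0.57 ± 0.11, adjusted p = 2.6e-05). E2F4 rose by 0.26 ± 0.05 (adjusted p = 1.08e-05), making 6 of 10 that passed, against 17.8% of all genes. E2F2 crossed the fold limit without R1881 replicate 2 or 3 or combined replicate 2 or 4, and E2F7 did without combined replicate 4.

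**Figure D2:**
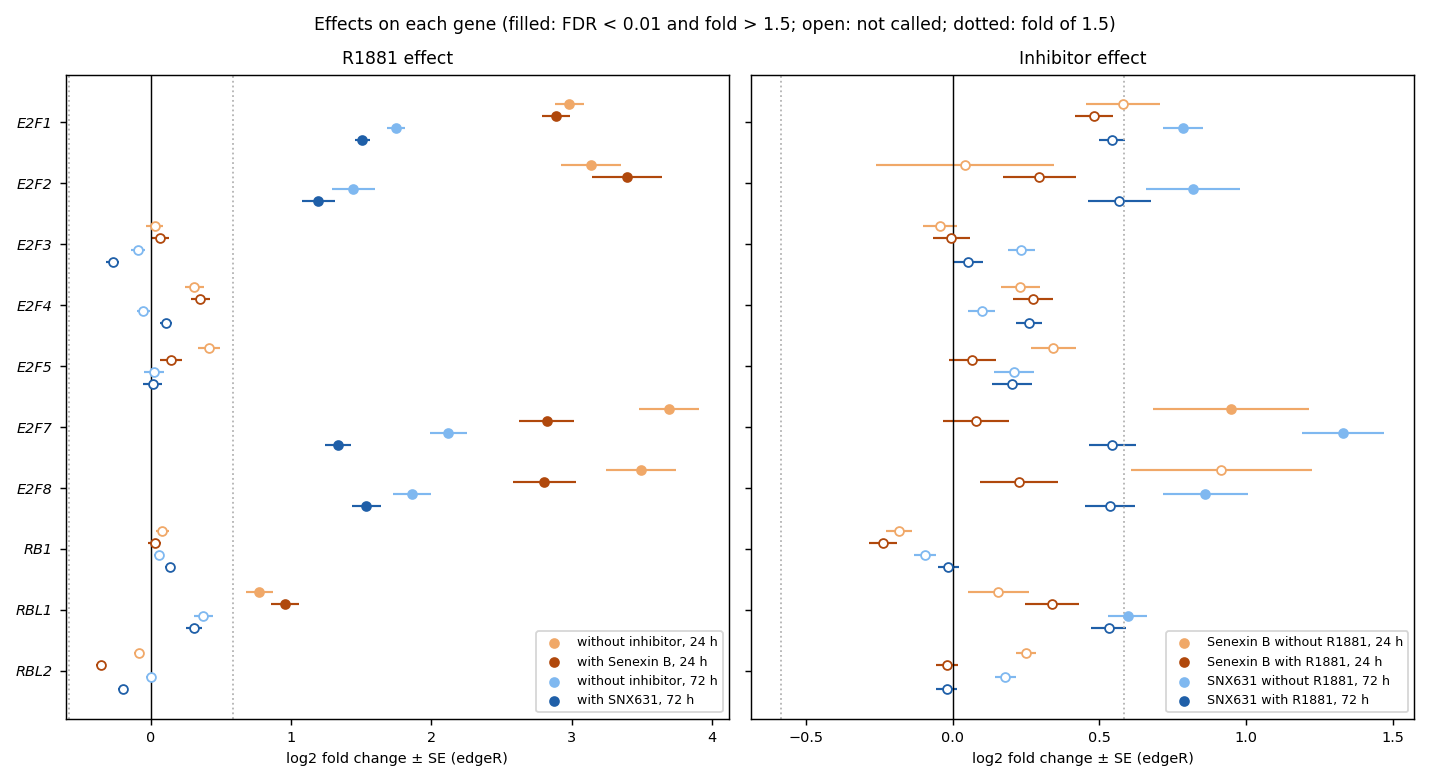
Log2 fold change ± SE (x axis, edgeR) of the 10 genes (y axis) for R1881 (left) and for the inhibitors (right), in the 24 h (orange) and 72 h (blue) experiments. Filled points were called (adjusted p under 0.01 and fold over 1.5) and dotted lines mark the fold of 1.5; the inhibitor effects with R1881 hold no filled point.

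R1881 still raised the inducible E2Fs in cells that also received an inhibitor. With Senexin B at 24 h, 5 of 10 genes were called higher, against 9.97% of all genes: log2 fold changes were 2.89 ± 0.10 for E2F1, 3.39 ± 0.25 for E2F2, 2.82 ± 0.19 for E2F7, 2.805 ± 0.23 for E2F8 and 0.96 ± 0.10 for RBL1. RBL2 fell, from 176, 187 and 187 CPM to 143, 144 and 145 CPM (-0.35 ± 0.04, adjusted p = 5.13e-10), and E2F4 rose by 0.35 ± 0.07 (adjusted p = 2.93e-05). With SNX631 at 72 h, 4 of 10 were called higher, against 10.1% of all genes: E2F1 by 1.51 ± 0.05, E2F2 by 1.19 ± 0.12, E2F7 by 1.33 ± 0.09 and E2F8 by 1.54 ± 0.10. Here E2F3 fell from 59.2, 58.3, 61.6 and 60.9 CPM to 46.9, 50.7, 53.4 and 49.5 CPM (-0.27 ± 0.05, adjusted p = 2.56e-06), and RBL2 fell by 0.19 ± 0.03 on the log2 scale (adjusted p = 7.27e-06). RBL1 rose by 0.31 ± 0.06 (adjusted p = 7.67e-06) and RB1 by 0.14 ± 0.04 (adjusted p = 0.001), the RB1 change being 0.030 with library totals (adjusted p = 0.475) and having an adjusted p of 0.011 without SNX631 replicate 2. Of all calls in this comparison 45.7% were higher, and 35.0% with library totals, which lowered those of the 10 genes by a median of 0.108.

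The interaction terms tested whether the R1881 effect itself differed with inhibitor. At 24 h edgeR called 0 of 10, against 0.577% of all genes, and DESeq2 called 0. Of the 10, 4 had an unadjusted p under 0.05. At least 719 of all 15948 genes did, the number at an adjusted p under 0.05. RBL2 passed the adjusted p alone. Its interaction was -0.27 ± 0.05 (adjusted p = 0.000976): Senexin B raised RBL2 without R1881 (154 ± 1.59 to 183 ± 6.28 CPM) and left it at 144 ± 1.07 CPM against 145 ± 5.17 CPM with R1881. At 72 h, E2F7 was the 1 of 10 called lower, against 0.821% of all genes, with an interaction of -0.79 ± 0.16 (adjusted p = 0.000499). SNX631 took E2F7 from 3.19 ± 0.539 to 8.15 ± 0.976 CPM without R1881 and from 14.1 ± 0.785 to 20.7 ± 1.96 CPM with it. The call for E2F7 held in each of 16 refits that left out a library. The RBL2 interaction at 72 h was -0.20 ± 0.05 (adjusted p = 0.00543) and did not pass in 10 of those 16 refits, whose adjusted p went up to 0.0231. E2F7 at 24 h had a similar value with a wider error (-0.87 ± 0.29, adjusted p = 0.082), and E2F1 was at -0.10 ± 0.14 at 24 h (adjusted p = 0.806) and -0.24 ± 0.08 at 72 h (adjusted p = 0.0466).

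Of the 8 partner genes, MYBL2 followed the inducible E2Fs. MYBL2 encodes B-MYB, which joins the MuvB proteins when cells pass into division, and it rose from 5.17 ± 0.827 to 40.3 ± 3.18 CPM with R1881 at 24 h (log2 fold change 2.90 ± 0.10, adjusted p = 6.7e-23) and from 13.2 ± 1.51 to 53.2 ± 1.95 CPM at 72 h (2.00 ± 0.07, adjusted p = 6.8e-26). LIN9, a MuvB subunit, was also called at 24 h (1.08 ± 0.11, adjusted p = 7.2e-10) and rose by 0.28 ± 0.09 at 72 h (adjusted p = 0.0064). The DP partners changed little. TFDP1 rose by 0.20 ± 0.04 at 24 h and 0.11 ± 0.03 at 72 h, whereas TFDP2 was at 0.09 ± 0.04 at 24 h, not passing, and fell at 72 h (-0.14 ± 0.04, adjusted p = 0.0020). The other MuvB subunits had R1881 log2 fold changes at 24 h of 0.44 ± 0.09 (LIN52), 0.23 ± 0.07 (LIN54), 0.17 ± 0.03 (RBBP4) and -0.0040 (LIN37). In all, 6 of 8 passed higher at 24 h, against 26.3% of all genes. At 72 h 4 passed higher and 1 lower, against 27.6% and 24.6% of all genes. SNX631 alone called MYBL2 (0.74 ± 0.08, adjusted p = 4.5e-10), and LIN9 (0.42 ± 0.09), LIN52 (0.33 ± 0.09) and RBBP4 (0.11 ± 0.02) passed. That made 1 of 8 called higher, against 2.82% of all genes, and 4 of 8 that passed higher, against 14.4%. Senexin B alone called 0 of 8 in edgeR and in DESeq2, against 2.02% of all genes called higher and 1.77% lower. Of the 8, 2 had an unadjusted p under 0.05. At least 5717 of all 15948 genes did, the number at an adjusted p under 0.05.

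Of 15 genes for G1 cyclins, their kinases and the kinase inhibitors, which set the phosphorylation of pocket proteins, 14 were tested. With R1881 at 24 h 5 were called higher and 2 lower, against 9.81% and 9.19% of all genes, from CDK6 (2.34 ± 0.19, adjusted p = 6.7e-13) down to CDKN1A, the gene of the inhibitor p21 (-0.92 ± 0.05, adjusted p = 1.3e-16). At 72 h 5 were called higher, against 9.7% of all genes, again led by CDK6 (2.32 ± 0.19, adjusted p = 5.6e-15), with CCNE2 the lowest of them (0.74 ± 0.08, adjusted p = 7.8e-11). Senexin B alone called 2 lower, against 1.77% of all genes, CDKN2B (-0.98 ± 0.31, adjusted p = 0.0090) and CDKN2C (-0.66 ± 0.14, adjusted p = 0.00019), of which 1 was called in DESeq2. The count was 0 without Senexin B replicate 3 and 1 without vehicle replicate 2 or Senexin B replicate 2. SNX631 alone called 0 in edgeR and 0 in DESeq2, against 766 of 16074 genes in either direction, and 1 without vehicle replicate 3. At the adjusted p alone 3 passed higher and 3 lower, against 4321 of all genes in either direction. Of the 14, 7 had an unadjusted p under 0.05. At least 5864 of all genes did, the number at an adjusted p under 0.05. The list medians for the inhibitors alone were -0.03 and 0.0079.

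Known E2F target genes moved in the same direction as the inducible E2Fs in the R1881 comparisons. The lists were chosen with earlier results of these data known, so their counts are not an independent test. All 31 listed G1/S genes were called higher with R1881 at 24 h and at 72 h, against 9.81% and 9.7% of all genes. Their median log2 fold changes were 2.15 and 1.23. RRM2, a subunit of ribonucleotide reductase, led at both times, at 3.98 ± 0.10 (adjusted p = 1.9e-28) and 2.18 ± 0.05 (adjusted p = 8.7e-33). All 27 listed G2/M genes were likewise called higher at both times, with medians of 2.28 and 1.48, from TTK (3.10 ± 0.18) down to ECT2 (0.77 ± 0.07) at 24 h.

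The inhibitors alone raised part of these lists. Senexin B alone called 10 of 31 G1/S genes and 3 of 27 G2/M genes higher, against 2.02% of all genes, led by the replication licensing gene CDC6 (1.05 ± 0.13, adjusted p = 9.0e-08) and by CDK1 (0.94 ± 0.05, adjusted p = 1.2e-15), the kinase of mitotic entry. The G2/M count became 6 without vehicle replicate 2 or 3 and 5 without Senexin B replicate 1. SNX631 alone called 26 of 31 and 26 of 27, against 2.82% of all genes, led by MCM10 (1.39 ± 0.08) and CDK1 (1.36 ± 0.03), with medians of 0.81 and 0.99. With R1881 present, Senexin B called 0 of 31 G1/S genes in edgeR and in DESeq2, against 3.12% of all genes. Of the 31, 24 had an unadjusted p under 0.05. At least 5257 of all 15948 genes did, the number at an adjusted p under 0.05. Senexin B with R1881 called 1 of 27 G2/M genes. SNX631 with R1881 called 6 of 31 and 8 of 27, against 4.12% of all genes. All 31 and all 27 nonetheless passed the adjusted p alone, higher, with SNX631 in either setting. The share of all genes that did so was 14.4% without R1881 and 17.8% with it. The difference between the R1881 effects at 72 h and 24 h was called lower for 21 of 31 G1/S genes and 21 of 27 G2/M genes, against 1.31% of all genes, with CDC6 at -1.99 ± 0.11 (adjusted p = 1.9e-18) and TTK at -1.41 ± 0.22 (adjusted p = 1.9e-06). The 72 h interaction was called lower for 8 of 31 G1/S genes and 3 of 27 G2/M genes, against 0.821% of all genes. At the adjusted p alone, 14 and 22 passed lower, against 1140 of 16074 genes in either direction. The list medians were -0.30 and -0.40. So the lower interaction of E2F7 was not particular to it. At 24 h 5 G1/S genes and 1 G2/M gene were called lower, against 0.577% of all genes in either direction. Leaving out a library gave 3 to 5 for G1/S at 24 h and 1 to 6 for G2/M at 72 h.

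**Figure D3:**
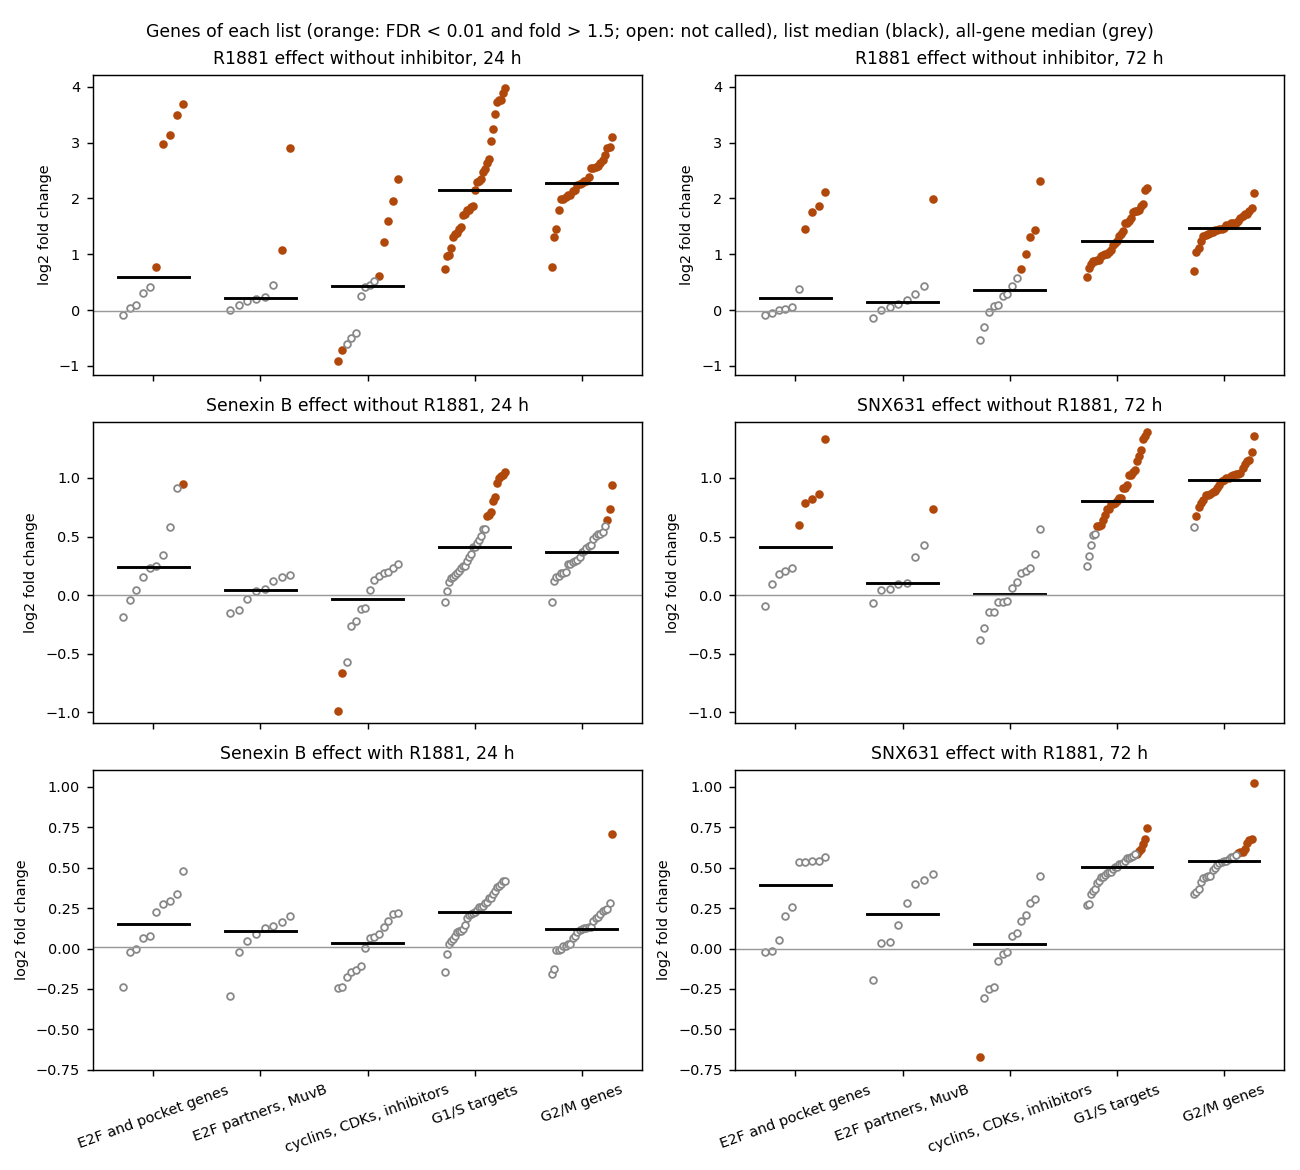
Log2 fold change (y axis, edgeR; one scale per row of panels) of the E2F and pocket protein genes and of the 4 other lists (x axis) in 6 comparisons. Points are genes (orange called, open not called), black lines list medians and grey lines the median of all genes. For the R1881 effects every G1/S and G2/M gene is called and lies above 0. The 10 E2F and pocket genes range from strongly raised to near 0, with some passing rises below the fold limit.

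Across the 28 libraries, after the mean of each experiment was taken off, E2F1 varied together with E2F8 (Pearson's r = 0.992), E2F7 (0.981), E2F2 (0.971) and RBL1 (0.889). For the others r with E2F1 was 0.7004 for E2F4, 0.608 for E2F5, 0.235 for RB1, -0.07 for E2F3 and -0.51 for RBL2. These values describe 8 treatment groups and carry no test, since libraries share treatments. Of 11233 genes compared, those most like E2F1 were DEPDC1 (0.993), MCM5 (0.993) and FEN1 (0.992), and those most like E2F7 were NUSAP1 (0.992), DEPDC1 (0.991) and NCAPG (0.991). For E2F8 they were FEN1 (0.992), ASPM (0.992) and DEPDC1 (0.990), and for E2F2 they included CENPU (0.983) and CENPI (0.983). RBL1 was most like NUP155 (0.952), KNTC1 (0.950) and EXOSC2 (0.949). The genes with weaker partners were E2F3, whose nearest gene was C3orf38 (0.758), E2F5 with ZNF121 (0.843), RB1 with CERT1 (0.848), E2F4 with ANKRD13B (0.902) and RBL2 with COBLL1 (0.933).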

How the data were processed

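RNA-seq counts were analysed for 28 LNCaP libraries in 8 groups taken from the sample titles. The authors deposited 1 table of expected counts per gene, in which 16.9% of values above 0 have a fraction; counts were rounded to whole numbers. The submitters' processing notes name FastQC, cutadapt 2.8, STAR 2.7.2b, featureCounts and Subread 2.0.3, and the builds GRCh38.p13 and GRCm39 with no role; the annotation release, parameters and use of strand are not given in the sources used here.

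Each experiment was fitted with edgeR 4.0.16 (R 4.3.3; filterByExpr, TMM, quasi-likelihood test over 4 groups), after the steps were tested on simulated data, and p-values were adjusted over all genes by Benjamini-Hochberg; 95% intervals use the normal quantile of the SE. A gene was called at an adjusted p under 0.01 and a fold over 1.5; "rose", "fell" and "passed" mean the adjusted p alone. The difference of the R1881 effects used a fit of all 28 libraries, and DESeq2 1.42.0 was an alternative. Levels are CPM with TMM factors over all libraries; per kb values use GENCODE 29 exon lengths. The replicates are labelled as biological; totals give the depth, and p-values cover the spread between libraries. Libraries of a group differed by more than sampling noise in each pair. Replicate numbers did not pair samples.

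The genes and the lists (8 partners, 15 G1 regulators, 31 G1/S and 27 G2/M genes) were chosen with earlier results of these data known. All 10 members are named in each comparison by value or count; other lists are named by their called genes of highest or lowest fold change, all partners are named, and likeness is the highest Pearson r among genes of at least 5 CPM; some genes are not reported here. Alternatives were other scalings, no filter, other limits, 1 joint fit, a replicate block and each library left out.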

Additional observations from a re-analysis of the deposited data

Results flagged for a closer look

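Among 40 combinations of gene and 72 h group, 4 held a library far from the other 3, by the ratio of its gap to the range; chance flags about 1 in 20. E2F8 was at 3.23 CPM in vehicle replicate 2 (the others 2.30 to 2.40), RBL1 at 16.2 CPM in vehicle replicate 3 (others 14.1 to 14.4), RBL1 at 19.6 CPM in R1881 replicate 2 (others 18.9 to 19.0), and E2F3 at 50.4 CPM in R1881 replicate 1 (others 47.1 to 47.5).

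The R1881 effect differed with inhibitor, by the interaction test of edgeR, for RBL2 with Senexin B (-0.27 on the log2 scale), RBL2 with SNX631 (-0.20) and E2F7 with SNX631 (-0.79). It differed between the 72 h and 24 h experiments for E2F1 (-1.23), E2F2 (-1.69), E2F4 (-0.36), E2F7 (-1.57) and E2F8 (-1.63), where time, dose and experiment cannot be told apart.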

How the results depend on the processing

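Of 1850 recomputed log2 fold changes of the 10 genes, 1718 kept their direction and their side of the call, 78 entered it, 9 left it and 45 changed sign, none of them called. The R1881 calls of E2F1, E2F2, E2F7 and E2F8 held under each setting run. Counts of 8 to 31 per vehicle library limit E2F2, E2F7 and E2F8 at 24 h. The cause of the changes below was not tested, apart from the wider limits, which by construction admit more genes.

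With an adjusted p under 0.05 and no fold limit, the genes called of 10 became 8 for R1881 at 24 h, 7 for Senexin B alone, 4 for Senexin B with R1881, 1 for the 24 h interaction, 9 for R1881 with SNX631, 9 for SNX631 alone, 7 for SNX631 with R1881, 3 for the 72 h interaction and 7 for the difference between experiments. At 0.01 and no fold limit they became 6 for Senexin B alone, 4 for Senexin B with R1881, 1 for the 24 h interaction, 8 for R1881 with SNX631, 6 for SNX631 with R1881 and 2 for the 72 h interaction. DESeq2 size factors gave 2 for Senexin B alone, and no filter on low counts gave 1 for SNX631 with R1881. Leaving out a library gave 0 to 2 for Senexin B alone (0 without vehicle replicate 3 or Senexin B replicate 2; 2 without vehicle replicate 2 or Senexin B replicate 1) and 0 to 2 for SNX631 with R1881 (2 without combined replicate 4).

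Over all genes, without the fold limit the calls at 0.01 and 0.05 were 7716 and 9307 for R1881 at 24 h (3030 with it), 7580 and 9157 with Senexin B (3009), 4009 and 5717 for Senexin B alone (604), 3622 and 5257 for Senexin B with R1881 (497), 334 and 719 for the 24 h interaction (92), 8397 and 9984 for R1881 at 72 h (3185), 9217 and 10562 with SNX631 (3543), 4321 and 5864 for SNX631 alone (766), 5326 and 6873 for SNX631 with R1881 (663), 1140 and 2034 for the 72 h interaction (192), and 1257 and 2209 for the difference between experiments (314). Listed genes called fell from 8 to 4 (G2/M, SNX631 with R1881) with library totals, from 3 to 1 (G2/M, 72 h interaction) with DESeq2, and from 2 to 1 (G1 regulators, Senexin B alone) with DESeq2 and without the filter.

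Signs that changed were all of small, uncalled values. Library totals gave -0.048 for E2F3 with R1881 at 24 h, -0.0072 for E2F3 and -0.047 for RB1 with R1881 in Senexin B, -0.081 for E2F5, -0.043 for RB1 and -0.097 for RBL2 with R1881 at 72 h, and -0.094 for E2F5 with R1881 in SNX631. No filter gave 0.0039 for RB1 (SNX631 with R1881) and 0.0028 for E2F5 (72 h interaction). Replicate numbers did not pair the libraries: deviations of same-numbered libraries correlated at -0.02 to 0.07 in the 24 h experiment and at -0.05 to 0.06 in the other. The fit with the number as a replicate block gave -0.010 for E2F2 (Senexin B alone) and left each count of members called as it was.

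Leaving out libraries gave ranges across 0 for Senexin B alone in E2F2 (-0.15 to 0.25), E2F3 (-0.071 to 0.015) and RBL1 (-0.0091 to 0.28), for Senexin B with R1881 in E2F3 (-0.064 to 0.045), E2F7 (-0.051 to 0.15) and RBL2 (-0.050 to 0.0013), and for the 24 h interaction in E2F1 (-0.19 to 0.037), E2F3 (-0.028 to 0.088) and E2F4 (-0.080 to 0.10). They did for R1881 at 24 h in E2F3 (-0.017 to 0.089), R1881 in Senexin B in RB1 (-0.0064 to 0.056), R1881 at 72 h in E2F5 (-0.026 to 0.075) and RBL2 (-0.019 to 0.027), R1881 in SNX631 in E2F5 (-0.036 to 0.063), SNX631 with R1881 in RB1 (-0.029 to 0.014) and RBL2 (-0.041 to 0.0091), and the 72 h interaction in E2F5 (-0.060 to 0.043).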
